A study of Mus musculus with 6 samples.

Results

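The RNAs described here are 8 long noncoding RNAs of the mouse, taken by their symbols from a gene table of 22127 listed genes. They fall into 2 classes. Neat1 and Malat1 stay in the nucleus, and Gas5, Snhg1, Snhg3, Snhg5, Snhg8 and Snhg12 are host genes of small nucleolar RNAs (snoRNAs). All 8 were listed and all had at least 355 reads in each library, so none was lost to the limit of 10 reads in both libraries together that a gene had to reach to be compared. The cells were GC-2 spd(ts), an immortalised line derived from mouse spermatocytes and known to express a temperature-sensitive form of p53 beside the viral large T antigen. Both cultures went through 12 h without serum before treatment. One was then kept for 48 h with 120 µM bisphenol A (BPA), a plasticizer with hormone-like activity, and the other, the control, for 48 h with the vehicle alone, dimethyl sulfoxide (in which the BPA was dissolved too) at 0.1% in medium with 10% serum. RNA of each culture was divided among an mRNA library, a circular RNA (circRNA) library and a small RNA library.

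Each group held 1 library of each kind, so no difference below has a replicate check and none was tested. The intervals are exact 95% intervals on read counts. They cover counting error only and compare these libraries, not the conditions. The mRNA libraries held 32312872 reads (control) and 33071378 reads (BPA) over listed genes. Of 15 spermatocyte markers, 4 were listed, and these 4 together had 16 reads in the control and 22 in the BPA library. Ddx4, a germ cell RNA helicase, had 0 and 9 reads, Sycp3, a protein of the meiotic chromosome axis, had 6 and 0, and Sycp1, Dmc1 and Spo11 were not listed. The label of a spermatocyte-derived line therefore rests on its origin and not on these markers. All 9 listed markers of fibroblasts or peritubular cells were lower in the BPA library, with a median log2 ratio of -0.93 and summed reads of 140295 and 70170. Of 10 Sertoli cell markers 9 were listed, 7 higher and 2 lower in the BPA library. Their median log2 ratio was 0.39 and their summed reads were 10029 and 11621. The 3 listed Leydig cell markers had 1800 and 2333 reads, the 6 leukocyte markers 164 and 280, and the 3 epithelial markers 270 and 121. In RNA from a whole culture, fewer cells of a type and less RNA per cell cannot be told apart, and the part of these markers in the ratios below was not tested.

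Neat1 is the scaffold of paraspeckles, nuclear bodies that grow in many forms of stress, and Malat1 is an abundant RNA of nuclear speckles, which store splicing factors. The snoRNA host genes work differently: their introns carry snoRNAs, which guide the modification of ribosomal RNA, while the spliced exons go to the cytoplasm, enter ribosomes on short reading frames and are destroyed by nonsense-mediated decay, a pathway that depends on translation. Many of these hosts start with a terminal oligopyrimidine (TOP) tract, the C and T stretch that places ribosomal protein messages under growth control, and their spliced RNAs are known to build up when translation stops.

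The starts of the RNAs are shown because the TOP tract lies there. Each stretch is 80 bases of the RefSeq sequence of GRCm38.p6 on the sense strand, 5′ to 3′, with 40 bases before the annotated start and 40 from it on. Capitals mark runs of at least 5 C or T within 30 bases of the start. Of the 2 starts RefSeq gives for Gas5, the one shown is chr1:161035126-161035205 (+), and the other (chr1:161034561-161034640) holds no such run and no TOP form. The others are Snhg1 at chr19:8723447-8723526 (+), Snhg3 at chr4:132353647-132353726 (-), Snhg5 at chr9:88522858-88522937 (-), Snhg8 at chr3:123508297-123508376 (-), Snhg12 at chr4:132308638-132308717 (+) and Malat1 at chr19:5802633-5802712 (-).
Gas5: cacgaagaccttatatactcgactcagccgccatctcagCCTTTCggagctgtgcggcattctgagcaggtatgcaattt
Snhg8: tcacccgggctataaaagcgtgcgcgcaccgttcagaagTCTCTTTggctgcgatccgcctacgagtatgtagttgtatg
Snhg12: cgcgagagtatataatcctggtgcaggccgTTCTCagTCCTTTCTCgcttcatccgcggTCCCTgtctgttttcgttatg
Snhg1: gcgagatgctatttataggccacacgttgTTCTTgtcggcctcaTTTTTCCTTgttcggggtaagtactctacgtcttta
Snhg3: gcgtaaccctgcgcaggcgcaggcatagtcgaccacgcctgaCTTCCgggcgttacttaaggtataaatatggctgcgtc
Snhg5: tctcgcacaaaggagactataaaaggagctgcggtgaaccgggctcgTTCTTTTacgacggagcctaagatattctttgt
Malat1: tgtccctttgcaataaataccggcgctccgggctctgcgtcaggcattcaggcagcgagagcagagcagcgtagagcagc

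The TOP form was searched as a C followed by at least 5 C or T, beginning within 5 bases of the start on the sense strand. It was found in 3 of the 6 host genes, Gas5, Snhg8 and Snhg12, and not in Malat1. Among all genes with a RefSeq promoter, 11.0% of 27025 held the form, and among cytosolic ribosomal protein genes 26 of 57 (45.6%) did. With at least 4 C or T after the C, Snhg3 joined and the count became 4 of 6, beside 19.7% of all genes. In a window of 30 bases either side of the start, chosen after seeing the data, the form was in 3 of 6 hosts, beside 45.8% of all genes and 80.7% of ribosomal protein genes, so the hosts were then close to all genes. Snhg1 has a pyrimidine run of 9 at its start, TTTTTCCTT as printed, but no C in that run is followed by at least 5 C or T, so it falls outside the form. A match describes these letters and is not a test of translation.

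The 3′ ends of the long Neat1 isoform and of Malat1 are shown because they set these transcripts apart from the hosts. An A-rich tract there folds back on U-rich motifs into a triple helix that protects an end without a poly(A) tail. The short Neat1 isoform does not reach this end. The stretches are 110 bases of GRCm38 on the minus strand in DNA letters, chr19:5824708-5824817 for Neat1 and chr19:5795982-5796091 for Malat1. Capitals mark stretches of T broken by C or G, found by their letters, and, at the end of each line, the A-rich tract. They include the U-rich motifs. In Malat1 the middle stretch, TTTTGTTTT, is a match of letters only. Its last letters with ctcagg form the reverse complement of cctgagaaaac before it, so it is not counted as a U-rich motif.
Neat1: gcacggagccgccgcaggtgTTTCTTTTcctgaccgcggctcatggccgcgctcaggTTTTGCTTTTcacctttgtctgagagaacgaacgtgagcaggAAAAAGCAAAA
Malat1: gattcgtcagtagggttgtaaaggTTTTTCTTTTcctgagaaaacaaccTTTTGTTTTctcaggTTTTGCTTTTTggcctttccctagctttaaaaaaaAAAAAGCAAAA
The tract occurs once in each gene. In Neat1 it ends at the last annotated base, and in Malat1 it ends 292 bases before the annotated end. Whether RNA was selected by its poly(A) tail for the mRNA libraries is a point the labels do not give.

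Neat1 was the member that differed most between the libraries. It was higher in the BPA library, Snhg3 was lower there, and the other 6 members stayed within 1.5-fold. The quantity compared below is the log2 ratio of BPA over control, taken on log2(normalised count + 1) with the authors' scaling.

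Neat1 (ENSMUSG00000092274, chr19:5824708-5845478, minus strand, 20771 exon bases) had 11181 control reads and 28131 BPA reads. After the authors' scaling this was 11622 and 27064 normalised counts, a log2 ratio of 1.22 (1.19 to 1.25) or 2.33-fold (2.28 to 2.38). Among the 8628 compared genes with at least 1000 reads in both libraries together, 0.777% had a higher ratio. The long Neat1 isoform scaffolds the paraspeckle and a short isoform shares its 5′ end, and the gene table gives 1 value for both. A separate row, Gm27505, lies inside Neat1 (chr19:5844638-5844747, 110 bases, beginning 732 bases into the gene) and had 524 and 1419 reads. Its log2 ratio of 1.32 (1.18 to 1.47) overlapped that of Neat1, so reads near the 5′ end gave a ratio like that of the gene as a whole.

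Malat1 (ENSMUSG00000092341, chr19:5795690-5802672, minus strand, 6983 exon bases), the neighbour of Neat1 on the chromosome, had 6848 and 9364 reads. Its log2 ratio was 0.34 (0.29 to 0.39), or 1.27-fold, and 12.0% of the genes with at least 1000 reads lay above it. Both nuclear transcripts were thus higher in the BPA library, but not to the same degree. There were 1.63 Neat1 reads per Malat1 read in the control and 3.0 in the BPA library, a ratio 1.84 times as high (1.77 to 1.91).

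Among the hosts, Gas5 (ENSMUSG00000053332, chr1:161034422-161038539, plus strand), a growth-arrest transcript and the one with the most reads of the 6, had 5462 and 6580 reads. Its log2 ratio was 0.16 (0.11 to 0.21), or 1.12-fold. At that depth 26.9% of genes lay above it, so a ratio of this size was common.

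Snhg1 (ENSMUSG00000108414, chr19:8723475-8726443, plus strand) had 2812 and 4255 reads, the highest ratio of the 6 hosts. Its log2 ratio was 0.49 (0.42 to 0.56), or 1.4-fold (1.34 to 1.47), and 5.96% of genes lay above it. Snhg12 (ENSMUSG00000086290, chr4:132308623-132311024, plus strand) had 595 and 817 reads and a log2 ratio of 0.35 (0.19 to 0.50). Its interval contains the value of Malat1, so the 2 cannot be ordered. Both hosts were higher in the BPA library by less than 1.5-fold.

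Snhg3 (ENSMUSG00000085241, chr4:132348014-132353686, minus strand) went the other way, with 632 control reads and 355 BPA reads. Its log2 ratio was -0.94 (-1.14 to -0.75), so that the control was 1.92-fold (1.69 to 2.2) the BPA value. Of the genes with at least 1000 reads, 1.26% lay below it, but Snhg3 itself had fewer than 1000 reads in both libraries together. It was thus ranked against genes of greater depth. The exons of Snhg3 overlap those of Rcc1, which encodes the exchange factor of the Ran GTPase, on the same strand, and those of Gm17300 on the opposite strand. Rcc1 had 4067 and 4150 reads (log2 ratio -0.08, interval -0.15 to -0.02), and Gm17300 had 560 and 382 (log2 ratio -0.66, interval -0.85 to -0.47). The labels name no counter, so reads from the exons shared with Rcc1 could have been assigned to either gene. The library is labelled strand-specific, which separates Gm17300 where the counting used strand, a setting the labels do not give. Snhg3 and its same-strand partners summed had a log2 ratio of -0.17, a sum in which Rcc1 held most reads.

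Snhg5 (ENSMUSG00000097195, chr9:88521050-88522929, minus strand) had 757 and 724 reads and a log2 ratio of -0.18 (-0.32 to -0.03). Snhg8 (ENSMUSG00000104960, chr3:123507552-123508404, minus strand) had 1195 and 1323 reads and a log2 ratio of 0.04 (-0.08 to 0.15). A difference in Snhg8 was not detectable at this depth.

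**Figure D1:**
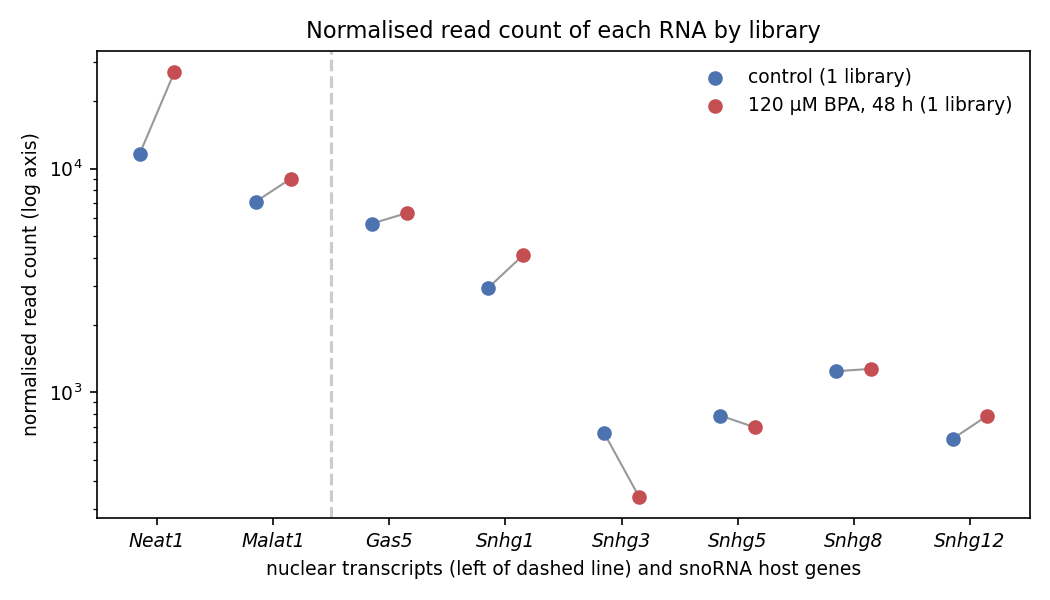
Normalised read count (log axis) of each of the 8 RNAs in the control and the BPA mRNA library, with 1 point per library and a line joining the points of each RNA. Neat1 has the widest step between the libraries, 11622 to 27064, and Snhg3 and Snhg5 are the members with the BPA point below the control point.

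Of the 8 RNAs, 1 was at least 2-fold higher in the BPA library and none was at least 2-fold lower. Over all 16870 compared genes the shares past these limits were 6.88% (higher) and 4.61% (lower), 11.5% in both directions together. Among genes with at least 1000 reads they were 1.36% and 0.985%, 2.34% together. At least 1.5-fold, 1 member was higher and 1 lower, beside 13.3% and 10.2% of all compared genes (23.5% together) and 3.93% and 4.2% of those with at least 1000 reads (8.12% together). The lower member, Snhg3, had fewer than 1000 reads itself, so the shares at that depth are not a like background for it. The counting interval lay above equality for 5 members and below it for 2. This was common: 28.2% of all compared genes had an interval above equality and 26.5% below it (54.7% together), and at 1000 reads or more 33.7% and 38.0% did (71.7% together). The median log2 ratio was 0.25 over the 8 and 0.10 over the 6 hosts, of which 4 were above 0, beside 0.02 over all compared genes (51.9% above 0) and -0.01 over those with at least 1000 reads. The median of the hosts was thus close to that of the table.

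**Figure D2:**
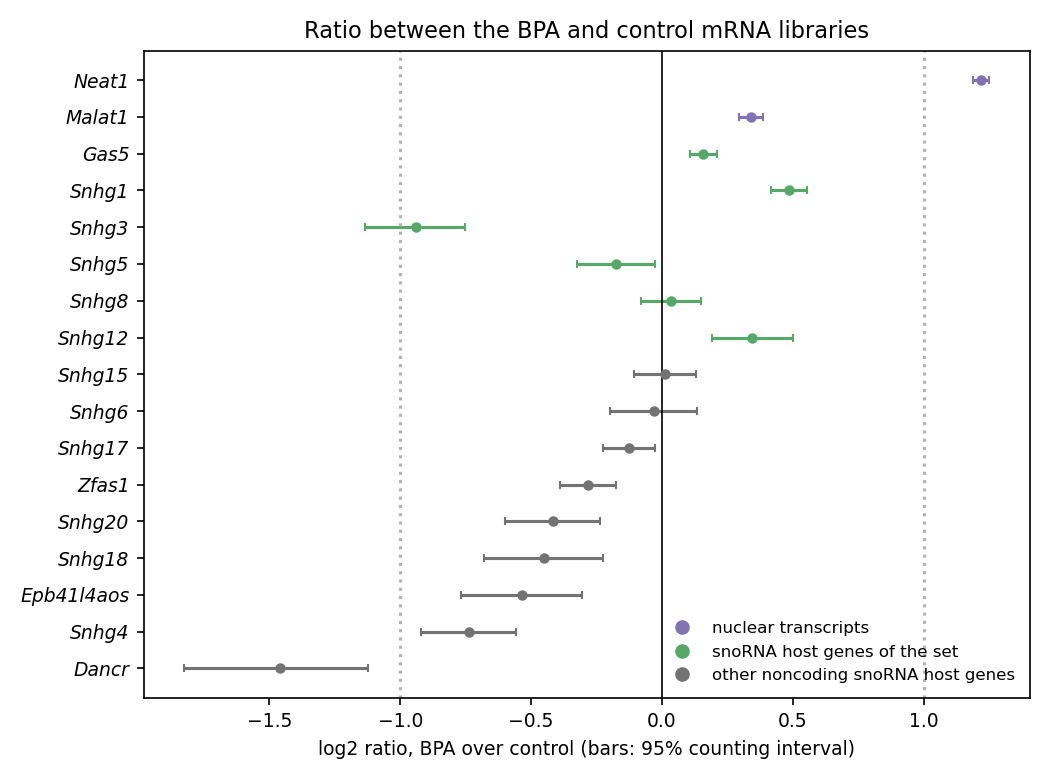
Log2 ratio of BPA over control for each of the 8 RNAs and for 9 other noncoding snoRNA hosts (grey), with 95% counting intervals; dotted lines mark 2-fold. Neat1 at 1.22 and, among the grey genes, Dancr at -1.46 lie beyond the dotted lines with their whole intervals, and the interval of Snhg3 crosses the line.

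**Figure D3:**
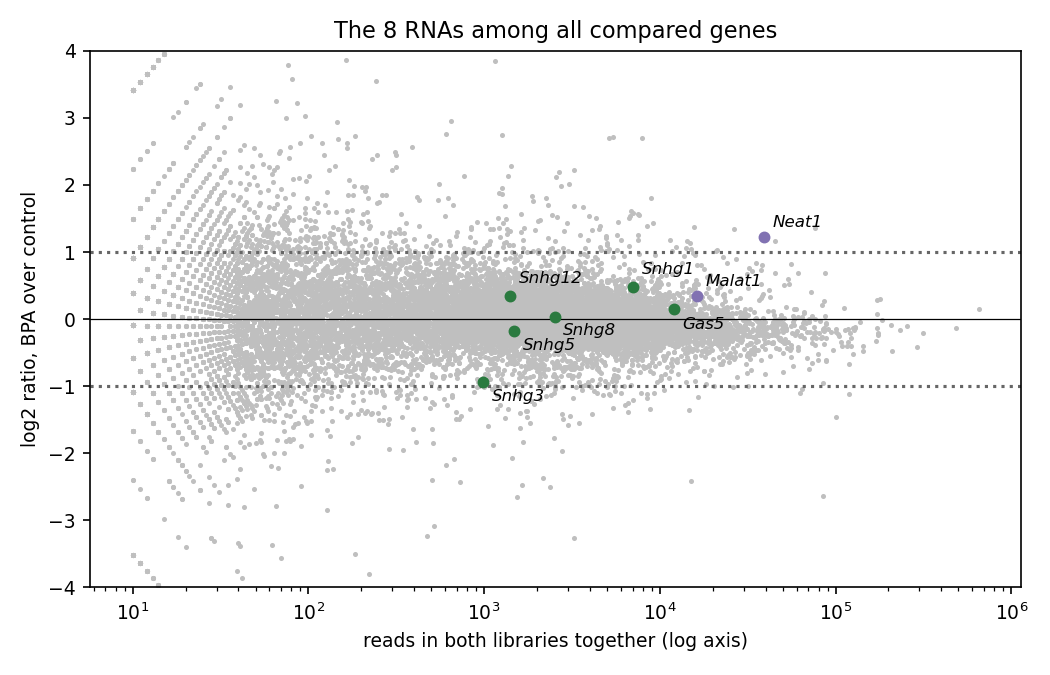
Log2 ratio of BPA over control against the reads of both libraries together (log axis) for all compared genes in grey, with the 8 RNAs in colour and dotted lines at 2-fold. The vertical axis ends at 4 in both directions, and 119 compared genes lie beyond it. Neat1 lies above the upper dotted line, and Snhg3 just inside the lower one.

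The nuclear and the host class were set against each other within each library, which does not depend on the scaling between libraries. Neat1 and Malat1 together had 18029 control reads and 37495 BPA reads, and the 6 hosts together had 11453 and 14054. There were 1.57 nuclear reads per host read in the control and 2.67 in the BPA library, a ratio 1.69 times as high (1.64 to 1.75). Most of that step came with Neat1: without it, Malat1 against the hosts gave 0.598 and 0.666, a ratio 1.11 times as high (1.07 to 1.16), and Neat1 alone against the hosts gave 2.05 times (1.98 to 2.12). Without Gas5, the host with the most reads, the step was 1.67 times (1.6 to 1.73). The 2 classes did not separate member by member, since the interval of Snhg1 (0.42 to 0.56) lay above that of Malat1 (0.29 to 0.39).

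The hosts also differed among themselves. Per Gas5 read there were 0.515 Snhg1 reads in the control and 0.647 in the BPA library, a ratio 1.26 times as high (1.18 to 1.33). For Snhg3 the values were 0.116 and 0.054, a ratio 0.466 times the control (0.406 to 0.535). Snhg3 and Snhg12, both on chromosome 4, had log2 ratios of opposite sign. Together the 8 RNAs took 0.0912% of the control reads and 0.156% of the BPA reads, of which the hosts took 0.0354% and 0.0425%.

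Levels can be compared between genes only per length. In RPKM, computed here over the union of annotated exons, the control order was Gas5 45.0 (43.8 to 46.2), Snhg8 43.4 (40.9 to 45.9), Malat1 30.3 (29.6 to 31.1), Snhg1 29.3 (28.2 to 30.4), Snhg3 19.8, Neat1 16.7, Snhg5 13.5 and Snhg12 7.67. Gas5 and Snhg8 could not be ordered, nor could Malat1 and Snhg1. In the BPA library the order of levels was Gas5 52.9, Snhg8 46.9 (44.4 to 49.5), Snhg1 43.3 (42.0 to 44.7), Neat1 41.0 (40.5 to 41.4), Malat1 40.5 (39.7 to 41.4), Snhg5 12.7 (11.7 to 13.6), Snhg3 10.9 (9.78 to 12.1) and Snhg12 10.3 (9.59 to 11.0). The intervals of Snhg8 and Snhg1 overlapped there, so these could not be ordered. Neat1 moved from place 6 to place 4, where its level and that of Malat1 overlapped. Snhg3 moved from place 5 to place 7. Its BPA interval overlapped those of Snhg5 and Snhg12, so Snhg3 could not be ordered against them there. A level of Neat1 spread over 20771 bases understates the covered part if most reads come from the short isoform. With the longest transcript as length, Snhg3 stood at 33.7 and 18.5 and Gas5 at 66.1 and 77.8. Neat1 then went from place 7 to place 4 and Snhg3 from place 3 to place 6.

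The gene table also lists snoRNA genes inside the hosts, a readout the choice of the 8 did not use. snoRNAs are released from introns and are stable, while the spliced host RNA is not. The snoRNA rows are set beside their hosts here. Whether their reads came from released snoRNAs or from unspliced host RNA was not tested. Of 28 such rows, 11 had exactly 1 read in both libraries and 17 were compared. Over the whole gene table, 69 of 347 snoRNA rows and 347 of 21780 other rows had exactly 1 read in both. All 28 together had 4037 and 3918 reads, a log2 ratio of -0.15 (-0.22 to -0.09). Most of these rows also overlap exons of retained-intron transcripts of their host, and reads could have been assigned either way.

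Inside Gas5, 6 of 10 snoRNA and other small RNA rows were compared. All 10 together had 2202 and 2167 reads, a log2 ratio of -0.13 (-0.22 to -0.05). The largest, Gm25789, had 943 and 1017 reads, and Gm22489 had 68 and 1. A row named Snord80 had 140 and 143, and another of that name at nearly the same position had 1 and 1. There were 2.48 Gas5 reads per read of these rows in the control and 3.04 in the BPA library, a ratio 1.22 times as high (1.14 to 1.31), and 1.19 times without Gm22489. The row of Gas5 counts all its annotated transcripts, those with retained introns included, so spliced Gas5 was not measured on its own.

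Inside Snhg1, 4 of 8 rows were compared. All 8 together had 1637 and 1577 reads, a log2 ratio of -0.17 (-0.27 to -0.06), with Gm24452 at 1228 and 1155. The ratio of Snhg1 to these rows went from 1.72 to 2.7, 1.57 times (1.44 to 1.71). Snhg12 against its rows (75 and 59 reads) went from 7.93 to 13.8, 1.74 times (1.2 to 2.54). These 3 hosts shared the direction, with more host reads per read of their snoRNA rows in the BPA library.

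The other 3 hosts had few reads in their snoRNA rows. The rows inside Snhg3 had 15 and 14 reads, those inside Snhg5 57 and 60, and those inside Snhg8 51 and 41. Their host to snoRNA ratios changed 0.602 times (0.268 to 1.36), 0.909 times (0.612 to 1.35) and 1.38 times (0.888 to 2.15). All 3 intervals include 1, so a change was not detectable at this depth.

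**Figure D4:**
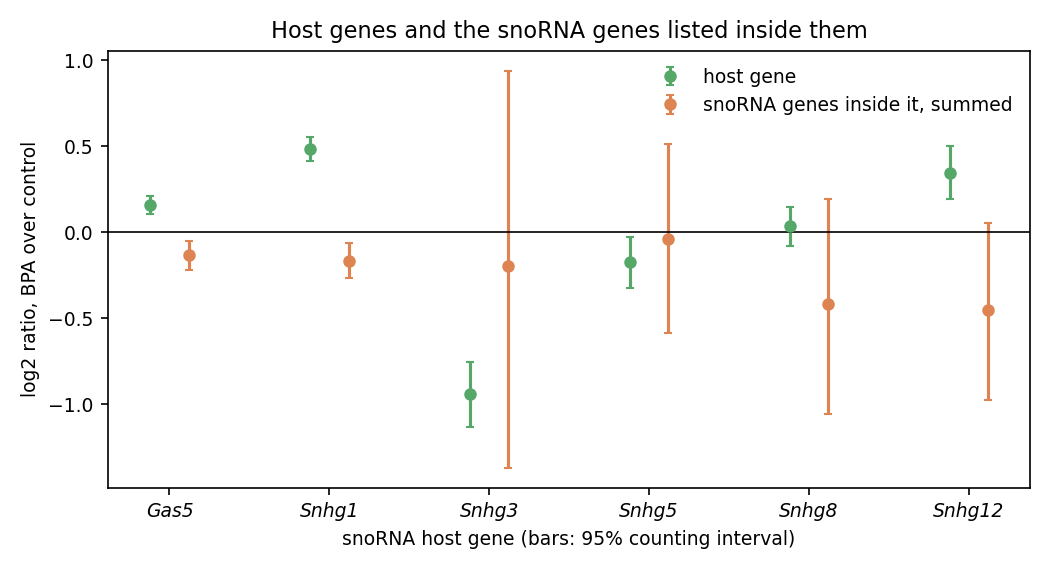
Log2 ratio of BPA over control of each snoRNA host gene beside that of the summed snoRNA rows inside it, with 95% counting intervals. Gas5, Snhg1 and Snhg12 lie above their snoRNA rows with no overlap of the intervals, and for Snhg3, Snhg5 and Snhg8 the intervals overlap.

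Other genes of the same kinds were counted from lists by name. Of 20 symbols of other noncoding snoRNA hosts, 12 entries were compared, and 2 were above and 10 below 0, with a median log2 ratio of -0.35. At least 2-fold, 1 was higher and 2 lower, beside 6.88% and 4.61% of all compared genes. Dancr had 246 and 96 reads (log2 ratio -1.46), Snhg4 had 630 and 408 (-0.74), and Epb41l4aos had 365 and 272 (-0.53). Snhg18 was at -0.45, Snhg20 at -0.42, Zfas1 at -0.28, Snhg17 at -0.13, Snhg6 at -0.03 and Snhg15 at 0.01. Most other hosts of this type thus lay below 0, as did Snhg3 and Snhg5, while the intervals of Gas5, Snhg1 and Snhg12 lay above it and that of Snhg8 included it. The entry at least 2-fold higher was a second row under the symbol Dancr with 4 and 10 reads, and the other one lower was Snhg14 with 17 and 8; both were named after their values were seen.

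Protein-coding genes that carry snoRNAs in their introns, such as ribosomal protein genes, have stable spliced messages. Of 42 compared, none was 2-fold different in either direction, beside 2.34% of genes with at least 1000 reads. Of the 42, 6 were above and 36 below 0, and the median log2 ratio was -0.16. Rps20, a protein of the small ribosomal subunit, stood apart at 0.72 (12074 and 21537 reads). Dkc1, the pseudouridine synthase of H/ACA snoRNPs, was at -0.53, Taf1d, a factor of RNA polymerase I, at -0.51 and Rpl4 at -0.40. The 78 TOP messages of cytosolic ribosomal proteins, which share members with that list, had a median of -0.13, with 12 above and 66 below 0. Rps26 was at -0.50, Rpl24 at -0.48 and Rpl37a at -0.44. Gas5, Snhg8 and Snhg12, the hosts with the TOP form, were above that median, and so was Snhg1, which lacks the form and had the highest ratio of the hosts.

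Of the genes for proteins that assemble snoRNAs into particles, 17 of 21 compared were below 0, beside 8121 of all 16870 compared genes. The median log2 ratio was -0.17 (-0.09 when scaled by total reads). At least 1.5-fold lower was 1, beside 4.2% of genes with at least 1000 reads. The lower gene was Fbl, the methyltransferase of box C/D particles, with 5308 and 3699 reads (-0.63). Nop10 was at -0.30 and Naf1 at -0.25.

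The factors of nonsense-mediated decay, the pathway that removes the spliced hosts, were divided evenly: 12 of 24 were above and 12 below 0. None was at least 1.5-fold different, beside 8.12% of genes with at least 1000 reads, and the median log2 ratio was -0.01. Pnrc2, a decapping partner of the pathway, was at 0.584 (1912 and 3097 reads), just under the 1.5-fold limit of 0.585. Magohb, of the exon junction complex, was at -0.39, Gspt1, a release factor, at -0.33 and Nbas at -0.25. Of 23 messages known as substrates of this decay, 6 were at least 2-fold higher and 1 lower, beside 6.88% and 4.61% of all compared genes. Among genes with at least 1000 reads the shares were 1.36% and 0.985%. The median of the 23 was 0.02. The 6 were Trib3 (2.69), Chac1 (2.23), Gadd45a (2.20), Atf3 (1.81), Ddit3 (1.54) and Cdkn1a (1.51), which are also known targets of the transcription factors ATF4 or p53. The one lower was Gadd45g at -1.18, named after its value was seen. The list held members at both ends, while Smg5 and Upf3b, factors of the pathway that are its own substrates, were at 0.12 and 0.02.

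Beside Neat1, the paraspeckle proteins were counted. Of 25 compared, 6 were above and 19 below 0, beside 8121 of all 16870 compared genes below 0. The median log2 ratio was -0.11 (-0.03 when scaled by total reads). Sfpq, Nono and Pspc1, the core proteins that bind Neat1, were at -0.31, -0.26 and -0.44, also named after their values were seen. The 2 that were at least 2-fold higher were Ahdc1 (261 and 762 reads, 1.43) and Zc3h6 (39 and 89 reads, 1.06). Of all compared genes, 6.88% were at least 2-fold higher. Hnrnpa1 was at -0.57 and Taf15 at 0.57. The messages of these 3 partners were lower in the BPA library, where Neat1 was higher. Nuclear speckle proteins, beside Malat1, had 2 of 22 above 0 and a median of -0.17, with U2af2 at -0.51, Pnisr at -0.50, Srsf3 at -0.44 and Srsf2 at -0.39.

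Other nuclear or abundant long noncoding RNAs did not share 1 direction. Of 18 compared, 11 were above and 7 below 0, with a median log2 ratio of 0.13. At least 2-fold different were 2 each way, beside 6.88% higher and 4.61% lower of all compared genes. Dnm3os was at -1.40 (177 and 72 reads), Airn at -0.86 (68 and 40), Ftx at 0.58 (199 and 322) and Kcnq1ot1 at 0.50 (117 and 179). Tug1, the one with the most reads of those named here, had 3336 and 3992 reads and was at 0.15. The other 3 that were at least 2-fold different had under 100 reads together each: Trp53cor1, a p53 target also called lincRNA-p21, with 18 and 49, Xist with 3 and 10, and H19 with 15 and 7, named after their values were seen.

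**Figure D5:**
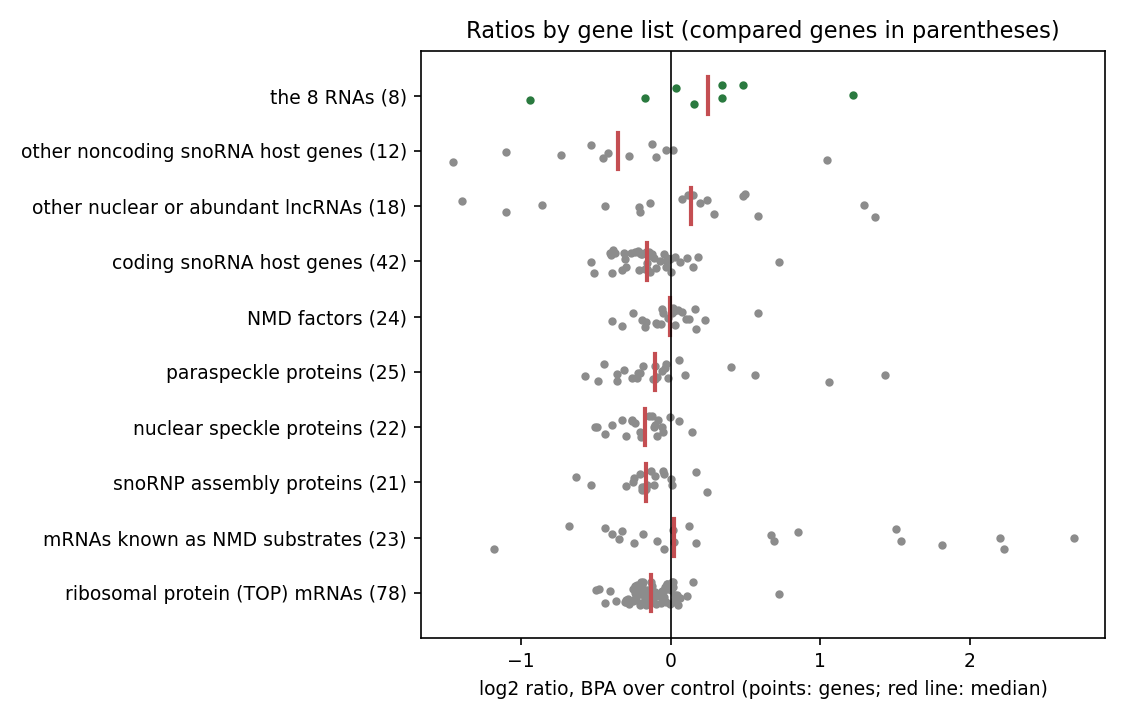
Log2 ratio of BPA over control of each compared gene (points) in each list, with the list's median as a red line and the 8 RNAs in green in the top row. The medians of the 9 lists in grey lie between -0.35 and 0.13, beside 0.25 for the 8 RNAs.

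The promoters were searched on both strands for stress motifs and for TATAAA over 300 bases, 250 before to 50 after the start. The search covered 8 RefSeq promoters of 7 members, since Neat1 is not in that table. The ATF4 form TGATGNAA, the E-box CACGTG and the heat shock core GAANNTTC were found in none of the 8, beside 3.97%, 7.15% and 7.86% of all promoters. The antioxidant form TGACNNNGC was found in 1, Snhg8, beside 12.4%, and TATAAA in 4, beside 13.6%. Snhg8 and Snhg5 held TATAAA in sense before the start, at -30 and -23. In Snhg3 it lay after the start, at 23, and in Snhg1 on the antisense strand, at -29. Overlaps between motifs were not searched. No match says only that these letters are not in this window.

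In the circRNA libraries, 11 circRNAs had a member as host, with 22 back-splice events of 12909 in the control library and 23 of 17586 in the BPA library. The share was 0.17% and 0.131%, a log2 ratio of -0.38 (-1.29 to 0.53). Gas5 gave 5 of the 11, with 17 and 21 events. Its main circle, chr1:161036208-161036579, had 15 and 17 events, and both its ends lie at annotated exon bounds. Its junction is shown because it identifies the circle, with 20 bases of the donor end in lower case and 20 of the acceptor start in capitals.
Gas5 junction: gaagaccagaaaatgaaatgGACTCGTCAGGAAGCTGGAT
Snhg1 gave 3 and 1 events over its circRNAs, Malat1 and Snhg3 1 and 0, and Snhg12 0 and 1. No circRNA was listed for Neat1, Snhg5 or Snhg8. A change in any of these was not detectable at this depth.

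The small RNA libraries listed 931 small RNAs, and none could be placed inside a member. Of these, 726 had miRBase names and 205 had other names without coordinates, so the latter could not be matched to a locus. Mir5117, whose gene lies inside Gas5, was not listed by name there, though its row in the mRNA table had 115 and 118 reads.

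The authors' deposited table gives Neat1 a p of 0.305, Snhg3 a p of 0.0607 and Snhg1 a p of 0.0844, from a test whose name the labels do not give. Its adjusted p was 0.961 for 7 members and 0.992 for Snhg8, and 0 genes of that table had an adjusted p under 0.05.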

How the data were processed

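Per the submitters' processing notes, STAR and StringTie were named for the mRNA libraries, STAR for the circRNA libraries, Bowtie 1.1.0 for the small RNA libraries, and GRCm38 and mm10 as builds. Per the labels' protocols the mRNA libraries were strand-specific. No source used here names the counter, callers or filters. As deposited, mRNA values are log2 of (normalised count + 1). Undoing the log gave multiples of a constant (1.03943 control, 0.962066 BPA), whole within 0.001 for 100% of genes, and dividing by it gave the reads. With 1 library per group no count model could be fitted to them. The deposited circRNA values were log2 as well, with 2 taken as 1 event. The deposited small RNA values were read counts, and the TPM columns the authors made from them were not used. The p-values are the authors' deposited ones.

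Groups came from the sample labels. A log2 ratio used pseudocount 1, a gene needed 10 reads in both libraries together, and intervals are Clopper-Pearson at 95% (SciPy 1.17.1). A count of 0 allows 0.0928 CPM in the control and 0.0907 CPM in the BPA library. RPKM were computed from the recovered reads. The ratio script was tested on simulated data. Alternatives used edgeR 4.0.16 and DESeq2 1.42.0 in R 4.3.3. Gene positions are from GENCODE for GRCm38, and sequences from RefSeq or that genome. The 8 members and all lists were chosen with earlier results of these data known. Named were all members, other noncoding hosts with at least 100 reads, and in each other list the genes at least 2-fold different with at least 100 reads (the 6 largest where more), filled up to 4 by size, plus overlapping genes with at least 10 reads. Of 43 coding hosts 42 were listed, and of 22 snoRNP genes 21.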

Additional observations from a re-analysis of the deposited data

How the results depend on the processing

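All 42 alternative values of the 8 members' log2 ratios kept their sign, over scaling, pseudocount and read sharing. The DESeq2 size factors gave the reported value for each of the 8, since the authors' scaling has the same factors. Those alternatives are therefore repeats and no added check. Scaled by total reads, genes with at least 1000 reads shifted by 0.08 as a whole, and the log2 ratio was 1.30 for Neat1, 0.42 for Malat1, 0.24 for Gas5 and 0.56 for Snhg1. The median of the decay factors turned to 0.0728, by the construction of that scaling. The medians became -0.08 for coding hosts, -0.06 for TOP messages, -0.03 for paraspeckle proteins and -0.09 for speckle proteins, beside 0.09 for all compared genes. Counts above and below 0 thus depend in part on the scaling. Summed with all overlapping genes, Gas5 was at 0.0791, Snhg1 at 0.28 and Snhg3 at -0.22, and Snhg3 with its same-strand partners only, an alternative chosen after seeing the data, was at -0.17. The nuclear to host ratio changed 2.05 times without Malat1 and 1.11 times without Neat1. With no filter beyond 1 read, 2978 genes were at least 2-fold higher and 2381 lower, and 4593 and 3523 at least 1.5-fold; with at least 50 reads, 440 and 277, and 1161 and 900, since the filter sets how many genes are compared. With the longest transcript as length, 12 of 16 levels moved beyond counting error. The comparisons with snoRNA rows as ratios, with genes of at least 1000 reads, with neighbours and in a window of 30 bases were also added after seeing the data. No paired analysis was possible because each group held 1 library, and no library could be left out for the same reason. Depth limits Snhg8, the snoRNA rows of Snhg3, Snhg5 and Snhg8, and all circRNAs.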

Other observations

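Protein-coding neighbours of the 8 RNAs within 30 kb were looked at after seeing the data. Snhg1 and Slc3a2, the heavy chain of amino acid transporters at the cell surface, start 106 bases apart on opposite strands. Slc3a2 had 7050 control reads and 19346 BPA reads, a log2 ratio of 1.34 (1.31 to 1.38) or 2.54-fold, where Snhg1 was 1.4-fold higher. Wdr74, a ribosome assembly factor beside them, had 1107 and 3013 reads, 2.52-fold. All of Snhg1, Slc3a2 and Wdr74 were thus higher in the BPA library, and Snhg1 the least.

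Gas5 and Zbtb37, a zinc finger gene, start 427 bases apart on opposite strands and had ratios of opposite sign. Zbtb37 had 681 and 373 reads, a log2 ratio of -0.98 (-1.17 to -0.80). Frmd8 beside Neat1 differed less than Neat1, with 3037 and 3679 reads (log2 ratio 0.17). Near Snhg12, Taf12 was at 0.19 and Trnau1ap at -0.26, and near Snhg3, Phactr4 was at -0.22. Zfp949 near Snhg5 had 115 and 187 reads, a log2 ratio of 0.59, where Snhg5 was at -0.18.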
